A study of Homo sapiens with 2 samples.

Results

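Keratin and keratin-associated genes were followed through promoter-capture Hi-C interaction lists of K562, an established human cell line from chronic myelogenous leukaemia that carries the BCR-ABL1 fusion. The members were protein-coding genes with a KRT or KRTAP symbol followed by a digit that had an end on a captured promoter fragment (a bait fragment) of either list. Of the 149 such genes in the gene table, 84 qualified, on 77 bait fragments. The share was 56.4% (95% exact binomial interval 48.0 to 64.5%), against 13721 of 20056 protein-coding genes (68.4%). One group of cells had received the vehicle DMSO for 24 h, and the other 100 nM ponatinib, an inhibitor of ABL kinases, for 24 h. Each group was 1 library, from equal numbers of harvested cells. Promoter contacts after kinase inhibition are therefore compared without replicates, and the effect of ponatinib could not be tested. Shares carry 95% exact binomial (Clopper-Pearson) intervals and medians intervals from order statistics. These describe counting error alone and take each interaction as independent, although neighbouring fragments are linked.

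Keratins are the intermediate filament proteins of epithelia. A type I (acidic) keratin pairs with a type II (basic) keratin to form a filament, and the pairs differ between simple epithelia, the layers of the epidermis and the hair follicle. Keratin-associated proteins (KRTAPs) form the matrix between hair keratin filaments and are grouped as high sulfur, ultrahigh sulfur and high glycine-tyrosine proteins. The type II genes and KRT18 lie together on chromosome 12, the other type I genes lie on chromosome 17 around a block of KRTAP genes, and further KRTAP genes lie on chromosomes 21 and 11. K562 is a blood line, and contact lists give no RNA level, so whether a gene was transcribed was not measured. The lists hold 1654 interactions between chromosomes 9 and 22 in DMSO and 1781 in ponatinib, the chromosomes joined in the BCR-ABL1 rearrangement.

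An interaction is a pair of HindIII restriction fragments, at least 1 of them a bait, with a score that is the authors' own value for it and is never under 5. The whole DMSO list holds 84049 interactions and the whole ponatinib list 91305, at a ratio of 1.09. Read depth is unknown. Positions are hg38. A fragment can hold ends of several genes, which then have the same interactions by construction. Many KRTAP genes, and keratin groups such as KRT6A and KRT6C or KRT14 and KRT16, have near-identical copies. How reads matching several copies were treated is not given in the sources used here, so their numbers are uncertain.

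Promoter windows of RefSeq (GRCh38.p14, 250 bases before to 50 after a start site) were available for 64 of the 84 members. The start site lay on a listed bait fragment for 63 of them, and KRT8 was the exception. The TATA box letters TATAAA, read on the gene's own strand, were found in 38 of the 65 windows of members (58.5%, 45.6 to 70.6%). By comparison, 1439 of 22199 protein-coding windows held them (6.48%). Among members they were in 29 of 42 KRTAP windows (69.0%) and in 9 of 23 keratin windows (39.1%). On the opposite strand 8 member windows held the same letters (12.3%), against 4.15% of protein-coding windows. The HindIII site AAGCTT, which reads the same on both strands, was in the windows of KRT71, KRT38, KRTAP22-1, KRTAP21-3 and KRTAP21-2. All 5 sites lay within 1 base of the end of a listed fragment, so the windows and the lists use the same coordinates here. The windows of 4 members are printed 5′ to 3′ on the gene's strand, with TATAAA in capitals. KRT28 is shown because it had the most interactions of any member, KRT10 and KRTAP4-5 because their numbers differed most towards ponatinib on chromosome 17, and KRTAP20-2 because its fragment holds an end of the highest scoring interactions of proximal chromosome 21.
KRT28 (chr17:40799910-40800209, minus strand): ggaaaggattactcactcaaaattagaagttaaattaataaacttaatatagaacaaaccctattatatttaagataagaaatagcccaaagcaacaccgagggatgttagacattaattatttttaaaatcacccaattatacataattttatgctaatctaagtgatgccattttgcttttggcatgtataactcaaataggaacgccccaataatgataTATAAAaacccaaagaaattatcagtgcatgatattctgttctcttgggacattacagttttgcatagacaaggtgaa
KRT10 (chr17:40822565-40822864, minus strand): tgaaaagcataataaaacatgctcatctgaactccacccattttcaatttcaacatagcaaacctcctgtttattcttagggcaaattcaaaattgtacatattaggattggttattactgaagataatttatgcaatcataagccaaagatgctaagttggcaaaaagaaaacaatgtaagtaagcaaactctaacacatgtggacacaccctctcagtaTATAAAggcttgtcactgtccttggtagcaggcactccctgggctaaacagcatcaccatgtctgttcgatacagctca
KRTAP4-5 (chr17:41149776-41150075, minus strand): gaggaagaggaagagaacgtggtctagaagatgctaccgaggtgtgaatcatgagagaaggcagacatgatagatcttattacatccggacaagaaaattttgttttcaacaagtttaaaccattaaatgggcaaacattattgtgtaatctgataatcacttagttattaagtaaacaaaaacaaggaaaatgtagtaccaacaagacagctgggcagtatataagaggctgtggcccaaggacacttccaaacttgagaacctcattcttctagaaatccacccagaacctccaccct
KRTAP20-2 (chr21:30634956-30635255, plus strand): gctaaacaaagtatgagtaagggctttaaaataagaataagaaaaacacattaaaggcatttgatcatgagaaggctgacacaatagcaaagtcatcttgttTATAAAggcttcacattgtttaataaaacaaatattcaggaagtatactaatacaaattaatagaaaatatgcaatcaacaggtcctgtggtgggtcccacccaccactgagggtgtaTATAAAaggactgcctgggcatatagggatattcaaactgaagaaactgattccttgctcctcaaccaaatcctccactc
The motif begins at position -28 from the start site in KRT28 and at -29 in KRT10. KRTAP20-2 has 2 copies, the nearer at -30, while the KRTAP4-5 window has no exact match. A match is a run of letters and not a measured binding site.

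The genes with a listed bait fragment were unevenly spread over the classes. High glycine-tyrosine KRTAPs were listed most fully among the KRTAPs, with 18 of 22 genes. High sulfur KRTAPs had 9 of 24 and ultrahigh sulfur KRTAPs 19 of 48. Among keratins, 4 of 5 simple epithelial genes were listed, 6 of 8 inner root sheath genes, 9 of 17 hair keratins and 19 of 25 others. Genes with no listed bait fragment included KRT16, KRT17, KRT20, KRT31, all of the KRTAP1, KRTAP2 and KRTAP3 genes, and KRTAP6-1, KRTAP6-2 and KRTAP6-3. They were not analysed further. Split at gaps over 1 Mb, the genes form 6 clusters. Chromosome 12 had 23 of 27 genes listed over 784 kb, chromosome 17 had 22 of 62 over 970 kb, the proximal cluster of chromosome 21 had 27 of 33 over 757 kb and the distal one 11 of 16 over 159 kb. On chromosome 11, none of the 6 KRTAP5 genes of the short arm was listed and 1 of the 5 on the long arm was.

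Members had 243 interactions under DMSO and 259 under ponatinib, and 66 fragment pairs were identical in both lists. The ratio of 1.07 (0.891 to 1.28) has an interval that holds the 1.09 of the whole lists. On chromosome 12 there were 63 and 67 interactions (ratio 1.06, 0.743 to 1.52), and on chromosome 17 there were 90 and 105 (1.17, 0.872 to 1.56). The proximal cluster of chromosome 21 had 70 and 62 (0.886, 0.619 to 1.26) and the distal one 20 and 24 (1.20, 0.635 to 2.29). In none of the 4 clusters did the interval leave out the ratio of the whole lists. The single chromosome 11 member, KRTAP5-9, an ultrahigh sulfur gene on fragment 71547802 to 71552433, had 0 and 1. Its interaction, at a score of 6, joined a fragment of chromosome 14 over TRAV26-2, a T cell receptor segment.

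Chromosome 17 fragments carried more interactions each than those of the other clusters. They averaged 5.29 in DMSO and 6.18 in ponatinib. Chromosome 12 fragments averaged 2.63 and 2.79, proximal chromosome 21 fragments 2.59 and 2.30, and distal ones 2.5 and 3. Bait fragments of the whole lists averaged 5.597 in DMSO, above chromosome 17, and 6.06 in ponatinib, with a median of 3 in each.

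Most partners lay inside the same cluster, except on distal chromosome 21. On chromosome 12 the within-cluster share was 90.5% in DMSO (80.4 to 96.4%) and 83.6% in ponatinib (72.5 to 91.5%). It was 73.3% and 74.3% on chromosome 17, with 66 of 90 and 78 of 105 interactions. On proximal chromosome 21 it was 70% and 69.4%, with 49 of 70 and 43 of 62. The distal cluster, which spans the shortest stretch of the 4, kept 6 of 20 (30.0%) and 7 of 24 (29.2%), but 75% and 91.7% once its span was widened by 100 kb on each side. With the same widening, chromosome 12 had 95.2% and 94.0% and chromosome 17 had 93.3% and 95.2%. The lead of chromosome 12 over chromosome 17 thus depends on where the span ends. In each cluster the intervals of the 2 libraries overlap. Interactions in which both fragments are listed baits with an end of a member numbered 20 and 18 on chromosome 12 and 17 and 19 on chromosome 17. There were 28 and 26 such pairs on proximal chromosome 21, and 5 and 4 on distal chromosome 21. Within-cluster partners over any gene with a KRT or KRTAP symbol, bait or not and pseudogenes included, were more on chromosomes 12 (35 and 35) and 17 (33 and 39). They numbered 29 and 31 on proximal and 6 and 5 on distal chromosome 21.

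**Figure D1:**
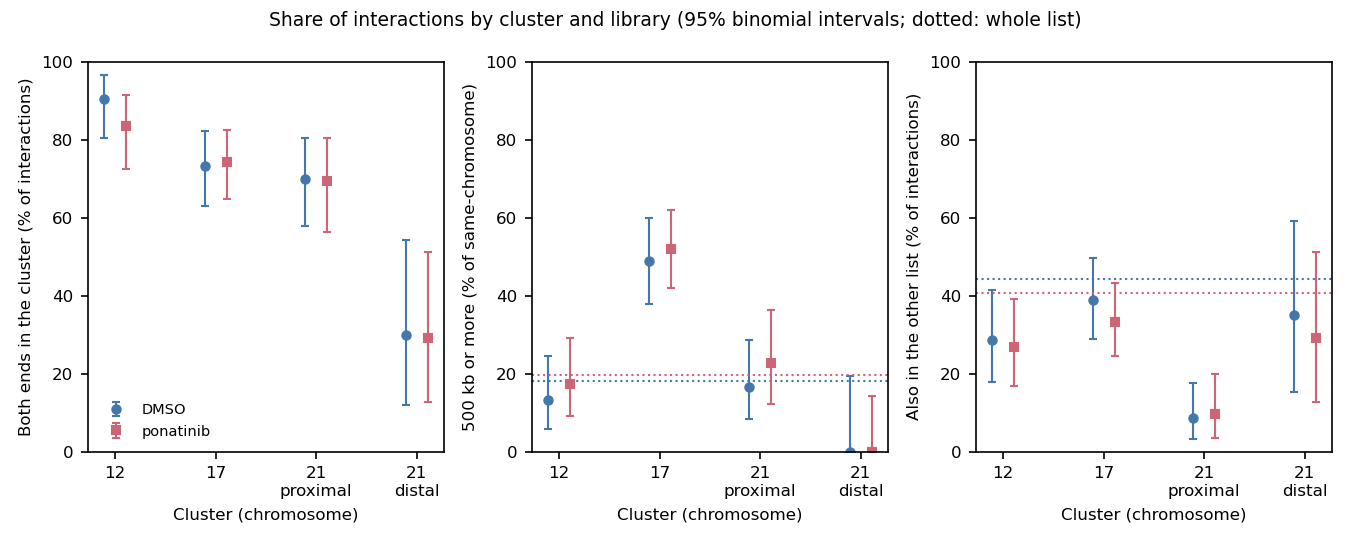
Share of interactions in percent with its 95% exact binomial interval, by cluster and library, for partners within the cluster, for distances of at least 500 kb (of same-chromosome interactions) and for identical pairs found in both lists, with the whole lists as dotted lines. With spans not widened, chromosome 12 has the highest within-cluster share (90.5% and 83.6%). Proximal chromosome 21 has the lowest shared share (8.57% and 9.68%), and chromosome 17 the highest share of long contacts (48.8% and 52.0%).

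Contacts on chromosome 17 were long. Their median distance between fragment midpoints was 470 kb in DMSO (387 to 677 kb) and 582 kb in ponatinib (401 to 692 kb), against 234 and 242 kb over the whole lists. Without the KRT28 fragment the medians were 443 kb in DMSO and 407 kb in ponatinib, so the order of the libraries turned. Of same-chromosome interactions, 48.8% (37.7 to 60%) and 52.0% (41.8 to 62.0%) spanned 500 kb or more, against 18.2% and 19.6% of the whole lists. On chromosome 12 the median was 260 kb in both libraries, with 13.3% and 17.5% at 500 kb or more. Proximal chromosome 21 had medians of 320 and 361 kb, and 16.7% and 22.6% at 500 kb or more. The distal cluster had medians of 157 and 166 kb and no contact that long in either list. Span limits within-cluster distance, and the distal cluster covers only 159 kb.

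Most contacts of chromosome 17 at 500 kb or more, 32 of 41 in DMSO and 41 of 53 in ponatinib, joined its 2 keratin blocks over the KRTAP genes between them. Others reached from the lower block to above the cluster (6 and 8 contacts at 834 to 1040 kb). The lower block, KRT222 to KRT40 (40654665 to 40987135, 332 kb), holds the type I inner root sheath keratins and KRT10, among others. It also holds the hair keratins KRT39 and KRT40, which have no listed bait fragment, and has 6 listed members. The upper block, KRT33A to KRT17 (41346092 to 41624575, 278 kb), holds hair keratins and the keratins KRT13, KRT14, KRT15 and KRT19 and has 9 listed members. Between them lie 34 KRTAP genes (40993430 to 41315710, 322 kb), of which 7 are listed. The DMSO list held 32 lower to upper contacts (35.6% of the cluster's interactions) and the ponatinib list 41 (39.0%), and 12 were shared. Their distances ran from 637 to 931 kb with a median of 720 kb. Contacts inside the lower block numbered 9 and 7 and inside the upper block 6 and 5. KRTAP fragments contacted the lower block 15 and 18 times, the upper block 2 and 4 times and each other 2 and 3 times. In all, 6 fragments of the KRTAP block took part in any listed interaction, against 33 of the lower and 27 of the upper block. Bait fragments of members numbered 4 in the KRTAP block, 6 in the lower and 7 in the upper block, so these counts depend on where baits lie.

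**Figure D2:**
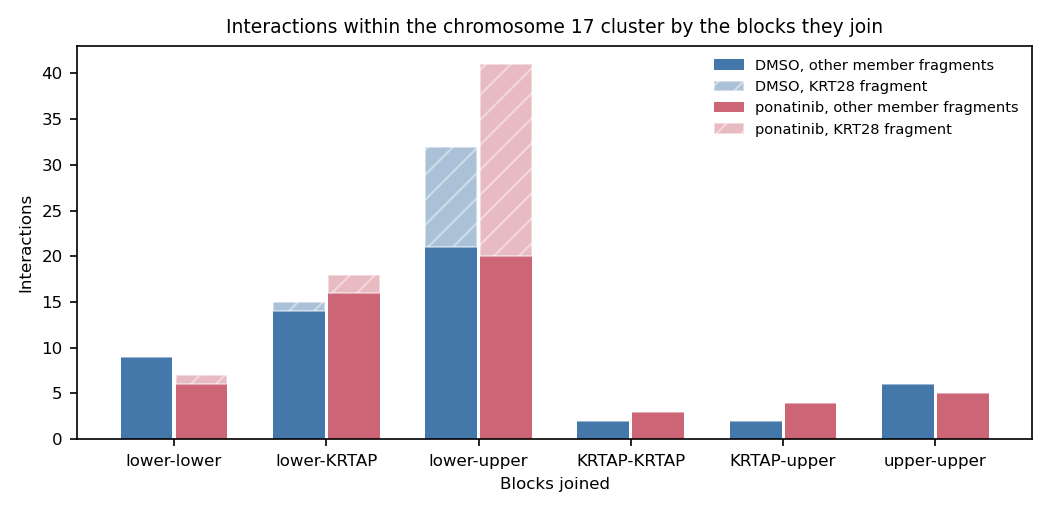
Number of interactions (bars) by the blocks of the chromosome 17 cluster they join, for each library, with those of the KRT28 fragment hatched on top. The lower to upper bars are the tallest, at 32 in DMSO and 41 in ponatinib, of which 11 and 21 are of KRT28.

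KRT28, a type I keratin gene of the inner root sheath of the hair follicle, had the most interactions of all members. Its fragment (40798223 to 40802141) had 22 interactions under DMSO and 37 under ponatinib, and 17 were shared. Ponatinib thus held 62.7% of the 59 (49.1 to 75%). Restricted to scores of at least 7 the numbers were 9 and 23, and at 10 or more 6 and 8. The upper keratin block received 11 and 21 of these contacts, stretches below the cluster 6 and 7, and stretches above it 4 and 5. Without the KRT28 fragment, lower to upper contacts numbered 21 in DMSO and 20 in ponatinib, so the net difference between the libraries in that pairing lay at this fragment. Other fragments differed in both directions. KRT32 had 8 and 2 contacts with the lower block, KRT28 included, and KRT10 had 3 and 6 with the upper block. The ponatinib contact with the highest score of the family joined KRT28 to a fragment over the noncoding gene LINC00974 (41542101 to 41549730), 746 kb away, at 27.94, against 9.64 in DMSO. The next fragment of LINC00974 (41549731 to 41550788) was contacted at 6.42 and 12.67. A fragment above the cluster (41657162 to 41669487) scored 6.51 and 15.26. In the other direction KRT28 contacted SMARCE1, a chromatin remodelling subunit gene below the cluster. The fragment next to it (40608731 to 40623003) scored 13.50 in DMSO and 9.90 in ponatinib, and one within it (40625591 to 40627239) scored 6.80 and 11.67. KRT28 also reached KRT32, a hair keratin, at 10.21 and 9.88, and KRTAP4-5 at 7.28 and 9.15. Contacts with KRT38 (11.15) and with KRT17 (6.42) were in the DMSO list only, and that with KRT13 (11.63) in the ponatinib list only. The bait fragment adjoining that of KRT13 (41491474 to 41492894) was paired with KRT28 in both lists, at 10.22 and 9.85.

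**Figure D3:**
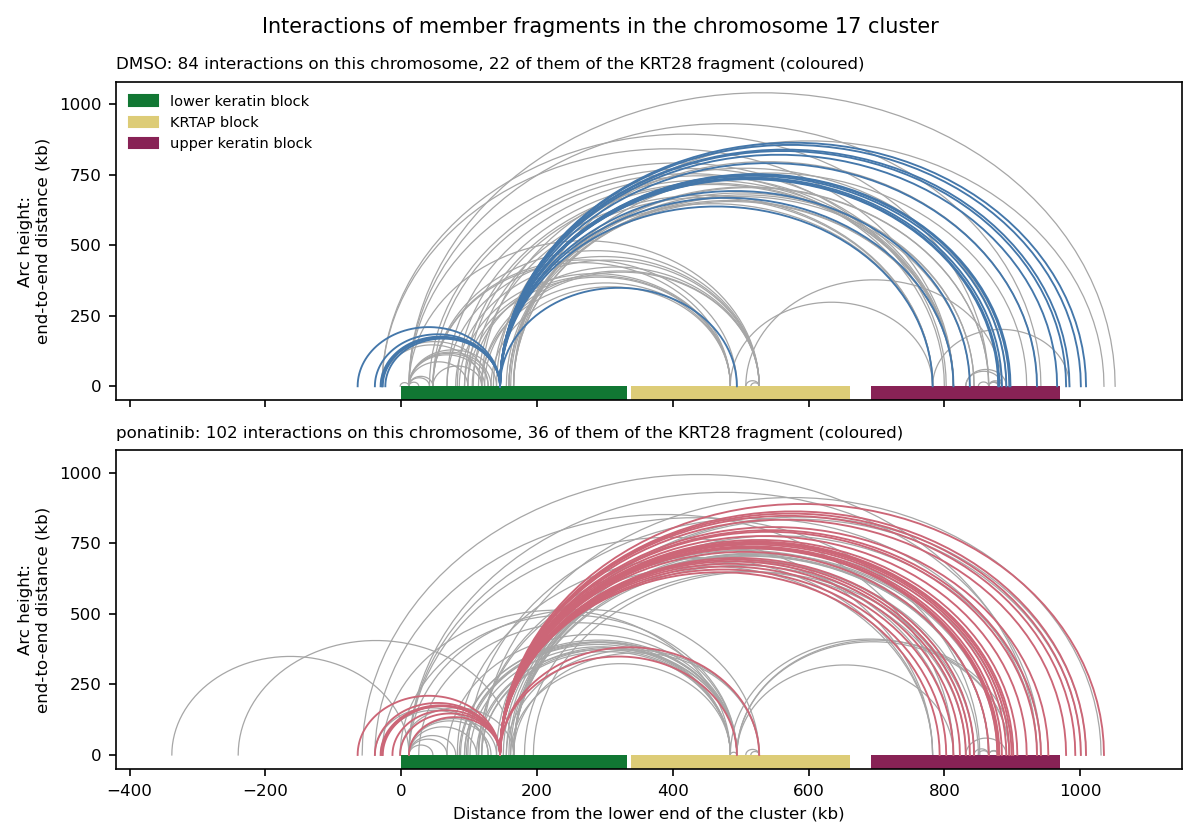
Interactions of members on chromosome 17 drawn as arcs along the cluster, in kb from its lower end, with arc height giving the distance, DMSO above and ponatinib below, and the KRT28 fragment coloured. Green, yellow and purple bars mark the lower keratin, KRTAP and upper keratin blocks, and 11 KRT28 arcs in DMSO and 21 in ponatinib end on the purple one.

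Other members of the lower block had fewer contacts. KRT222, whose gene opens the cluster, had 13 and 12 with 5 shared, of which 8 and 7 stayed in the lower block. Its highest scores were 9.40 in DMSO, to the KRT24 fragment, and 10.46 in ponatinib, to a fragment of the upper block (41596138 to 41597619), 931 kb away. KRT10, the type I keratin of the differentiating layers of the epidermis, had 4 and 11, with 1 shared. That shared pair reached the bait fragment beside KRT13 (41491474 to 41492894) at 11.17 and 12.02. Contacts of KRT10 with the upper block numbered 3 and 6. At scores of at least 7 KRT10 had 3 and 3, so its excess in ponatinib was made of scores below that. KRT24 had 6 and 1, the other way round. Its contacts with the KRTAP4-1, KRTAP4-5 and KRTAP4-6 fragments were in the DMSO list only. KRT26 had 5 and 3, and KRT27 had 2 and 2, both inner root sheath genes next to KRT28.

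In the upper block KRT32 had 10 and 5 interactions with 1 shared, the KRT28 contact. Its 7 DMSO contacts with the lower block, apart from KRT28, ran from KRT24 to LOC105371776, the highest at 10.82 (fragment 40735150 to 40739322, over no gene of the table). KRT38 had 6 and 3. KRT15 and KRT19, the latter a keratin of simple epithelia, share fragment 41508075 to 41531882, which had 7 and 9 with 4 shared. Its highest score, 14.46 in DMSO and 10.22 in ponatinib, was to a fragment 14.0 kb away, and a long contact of 707 kb with LOC105371776 scored 11.09 and 7.07. KRT14, the type I keratin of basal epidermis, had 3 and 4, and KRT13 2 and 4. KRT35 and KRT36 share a fragment with 2 and 4.

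Of the KRTAP4 genes, which encode ultrahigh sulfur proteins, KRTAP4-5 had 5 and 13 interactions. Of the 5 in DMSO, 3 were with an alternate sequence of chromosome 17 (17_JH159146v1_alt), the highest at 13.93, and none of the 13 was. On the chromosome itself KRTAP4-5 therefore had 2 and 13. Most of its ponatinib contacts (10 of 13) lay on the lower side, among them KRT25 (5.49), KRT26 (5.15) and KRT28 (9.15). At scores of at least 10 the direction turned, since only the DMSO contact at 13.93 was left. The fragment of KRTAP4-1, KRTAP4-2 and KRTAP9-1 (41173087 to 41190727) had 10 and 6, with all 12 of its same-chromosome partners on the lower side, and KRT222 was contacted at 8.67 and 8.05. KRTAP4-6 had 8 and 9, with 10 of 13 same-chromosome partners on the lower side.

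On chromosome 12 KRT78, a type II keratin gene near the upper end, had 22 and 29 interactions over 2 fragments, with 12 shared. Its upper fragment (52844370 to 52857595) had 19 and 27. All 33 of its distinct same-chromosome partners lay on the lower side, as far as KRT80 at the other end of the cluster, 684 kb away. The highest score in DMSO, 15.83, joined it to KRT1, the type II partner of KRT10 in the epidermis, 176 kb away, and was 9.94 in ponatinib. The highest in ponatinib, 21.32, joined it to a bait fragment inside KRT73 (52617256 to 52621623), 232 kb away, and was 9.08 in DMSO. KRT73, an inner root sheath gene, has no end on that fragment and is no member. KRT72, its inner root sheath neighbour, was contacted at 12.96 and 10.36. Further members were paired with that KRT78 fragment in 1 list only, KRT75 (7.10) and KRT2 (7.08) in DMSO, and KRT6C (6.36), KRT6A (5.80), KRT71 (9.47) and KRT3 (5.10) in ponatinib. KRT85 (6.83 and 5.58) and KRT74 (5.86 and 7.26) were paired with it in both. Of the 2 KRT77 fragments, the upper one was paired with it in both lists (6.74 and 7.83) and the lower one in ponatinib only (10.07).

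Many other chromosome 12 members also reached the stretch from the KRT78 fragment to the lower end of KRT8 (52844370 to 52897191, 52.8 kb), which was picked out after its values were seen. It held an end of 30 of 63 interactions in DMSO (47.6%) and 37 of 67 in ponatinib (55.2%). Of these, 19 and 27 were those of the upper KRT78 fragment, which count by construction because the stretch includes it. Only 11 and 10 reached the rest of the stretch, from other members. KRT72 had 9 and 8 interactions with 4 shared, and apart from KRT78 and KRT1 it contacted in both lists a fragment of this stretch (52859730 to 52860127, 9.55 and 10.64) and KRT4 (7.55 and 10.04). KRT84, a hair keratin, had 9 and 6, KRT85, another, 4 and 6, and KRT4, a keratin of wet stratified epithelia, 7 and 5. KRT1 had 4 and 4 with 3 shared, and KRT5, the type II partner of KRT14, 3 and 3 with none shared. KRT7, of simple epithelia, had 4 and 3 with none shared.

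**Figure D4:**
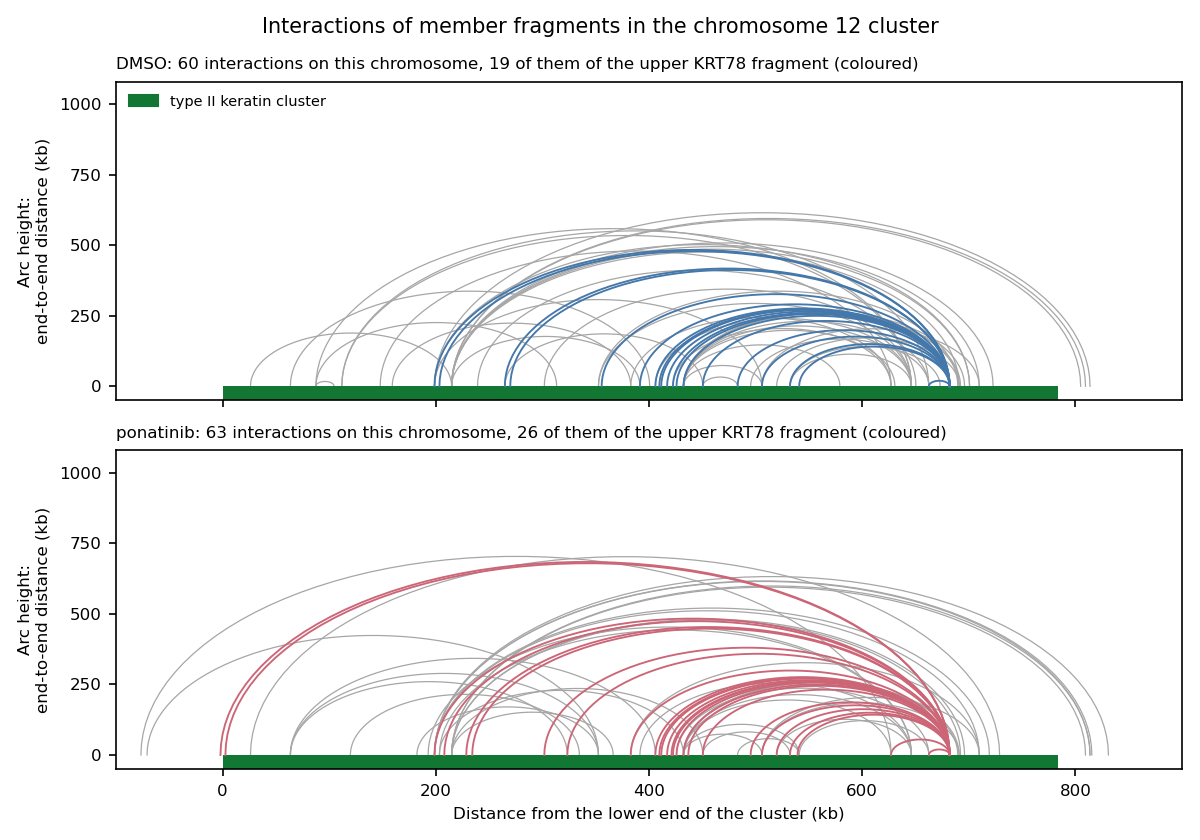
Interactions of members on chromosome 12 drawn as arcs along the cluster, in kb from its lower end, with arc height giving the distance, DMSO above and ponatinib below. Coloured arcs are those of the upper KRT78 fragment, 19 in DMSO and 26 in ponatinib, and all of them run to its lower side.

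KRT8 and KRT18, the paired keratins of simple epithelia, share the fragment 52946580 to 52956701, which had 0 interactions in DMSO and 1 in ponatinib. That contact was with another chromosome, at a score of 7.28. The start site of KRT8 in the promoter windows lies off this fragment, so these numbers are not contacts of that site. A fragment over KRT8 that is no bait (52895109 to 52900668) was contacted by KRT80 in ponatinib only, at 5.35. KRT80 had 1 and 1, KRT81 had 1 and 2, and KRT82 had 1 and 0. Chromosome 12 numbers thus ranged from 1 for KRT82, and for KRT8 and KRT18, to 51 for KRT78 over both lists, with a median of 4.

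Proximal chromosome 21 differed from the other clusters in how few of its interactions were found in both lists. The identical pair was in both for 6 interactions, 8.57% of those in DMSO (3.21 to 17.7%) and 9.68% of those in ponatinib (3.63 to 19.9%). The shares were 28.6% and 26.9% on chromosome 12, 38.9% and 33.3% on chromosome 17, 35.0% and 29.2% on distal chromosome 21, and 44.3% and 40.7% over the whole lists. Low scores were more frequent in this cluster, with 58.6% and 64.5% of interactions below 6 against 38.5% and 37.2% of the whole lists. Taking the sharing of the whole lists at the same scores gives 35.3% and 28.5%. At the same scores and distances it gives 31% and 24.3%, above the upper bounds of 17.7% and 19.9%. Why fewer pairs were shared in this cluster, the lowest of the 4, was not tested. With ends matched within 5 kb, the shared part of this cluster was 28.6% and 32.3%, against 58.7% and 56.7% on chromosome 12, 55.6% and 56.2% on chromosome 17, and 67.5% and 66.6% over the whole lists.

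Of its 6 shared interactions, 5 scored lower in ponatinib. The highest scoring one joined the neighbours KRTAP20-1 and KRTAP20-2, which encode high glycine-tyrosine proteins, 17.9 kb apart, at 10.15 in DMSO and 7.32 in ponatinib. KRTAP20-1 and KRTAP20-3 were joined at 7.62 and 5.79. KRTAP19-3 contacted KRTAP20-1 (6.62 and 8.02), KRTAP20-4 (8.05 and 6.15) and KRTAP21-1 (8.35 and 6.17), so 3 of its 5 interactions in each list were shared. KRTAP25-1 and KRTAP21-2, 454 kb apart, made up the sixth pair, at 5.85 and 5.21.

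Proximal chromosome 21 members had from 1 to 14 interactions over both lists. KRTAP20-2 and KRTAP21-3 had the most, with 6 and 8 and with 8 and 6. KRTAP20-3 had 8 and 2, KRTAP25-1 had 5 and 1, and KRTAP22-1 had 4 and 1. KRTAP20-1 had 3 and 6. KRTAP20-2 reached a fragment that holds ends of KRTAP13-3 and KRTAP13-4, which encode high sulfur proteins, at 10.72 in ponatinib only. The adjoining KRTAP20-3 fragment reached the same one in DMSO only, at 6.84. Likewise KRTAP19-1 and KRTAP19-2 were paired with KRTAP20-3 in DMSO only (5.34 and 5.51) and with KRTAP20-2 in ponatinib only (8.03 and 6.86). KRTAP21-3 was paired with both in DMSO only (8.18 with KRTAP20-2 and 7.11 with KRTAP20-3). KRTAP20-2 reached a fragment of CLDN8, a claudin gene below the cluster, at 9.26 in DMSO only. The neighbouring claudin gene CLDN17 (fragment 30164674 to 30171320) was contacted by 5 member fragments, of KRTAP25-1, KRTAP13-2 and KRTAP8-1 in DMSO and of KRTAP19-4 and KRTAP20-1 in ponatinib.

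The distal cluster of chromosome 21 lies within TSPEAR, a gene of tooth and hair follicle development, and 11 of 20 interactions in DMSO and 17 of 24 in ponatinib went to the same chromosome outside the cluster. A TSPEAR fragment just below it (44502014 to 44508468) was contacted by 5 member fragments, in 4 interactions in DMSO and 3 in ponatinib. The fragment 44514545 to 44526131 was contacted by 4 member fragments, in 2 and 4. KRTAP10-12 (5 and 6 interactions, 4 shared) reached the first at 10.90 and 11.89 and the second at 6.49 and 9.67. The fragment of KRTAP10-12 also holds an end of TSPEAR. The fragment shared by KRTAP10-9 and KRTAP10-10 (6 and 4) reached them at 11.93 and 7.61 and at 8.47 and 11.61. KRTAP12-2 contacted the first in DMSO only (7.67) and the second in ponatinib only (15.54), the cluster's highest score. KRTAP10-1 and KRTAP10-2 share a fragment with 3 and 7, of which only a DMSO contact scored 10 or more, and KRTAP12-1 had 1 and 5. KRTAP10-3 had 4 in DMSO and was listed at 0 in ponatinib.

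Numbers per gene were compared where both lists together gave 5 interactions or more, and a gene was counted as different from a 2-fold difference upward, after adding 1 to each number. Among the 57 members with enough interactions, 5 had more in ponatinib (8.77%), where 9.92% of all 9787 such genes did, and 4 had fewer (7.02%), where 6.26% of all genes did. These shares are near those of all genes. Those with more were KRT10, KRTAP4-5, KRTAP12-1 and the pair KRTAP10-1 and KRTAP10-2, which share 1 fragment. Those with fewer were KRT24, KRTAP25-1, KRTAP22-1 and KRTAP20-3. No chromosome 12 member differed that far. Over the 84 members, 32 had a higher number in ponatinib, 34 a lower one and 18 the same. The median log2 ratio of members was 0, against 0.08 for all genes. KRT28, at a log2 ratio of 0.72, and KRT78, at 0.38, were under the limit although they had the most interactions.

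**Figure D5:**
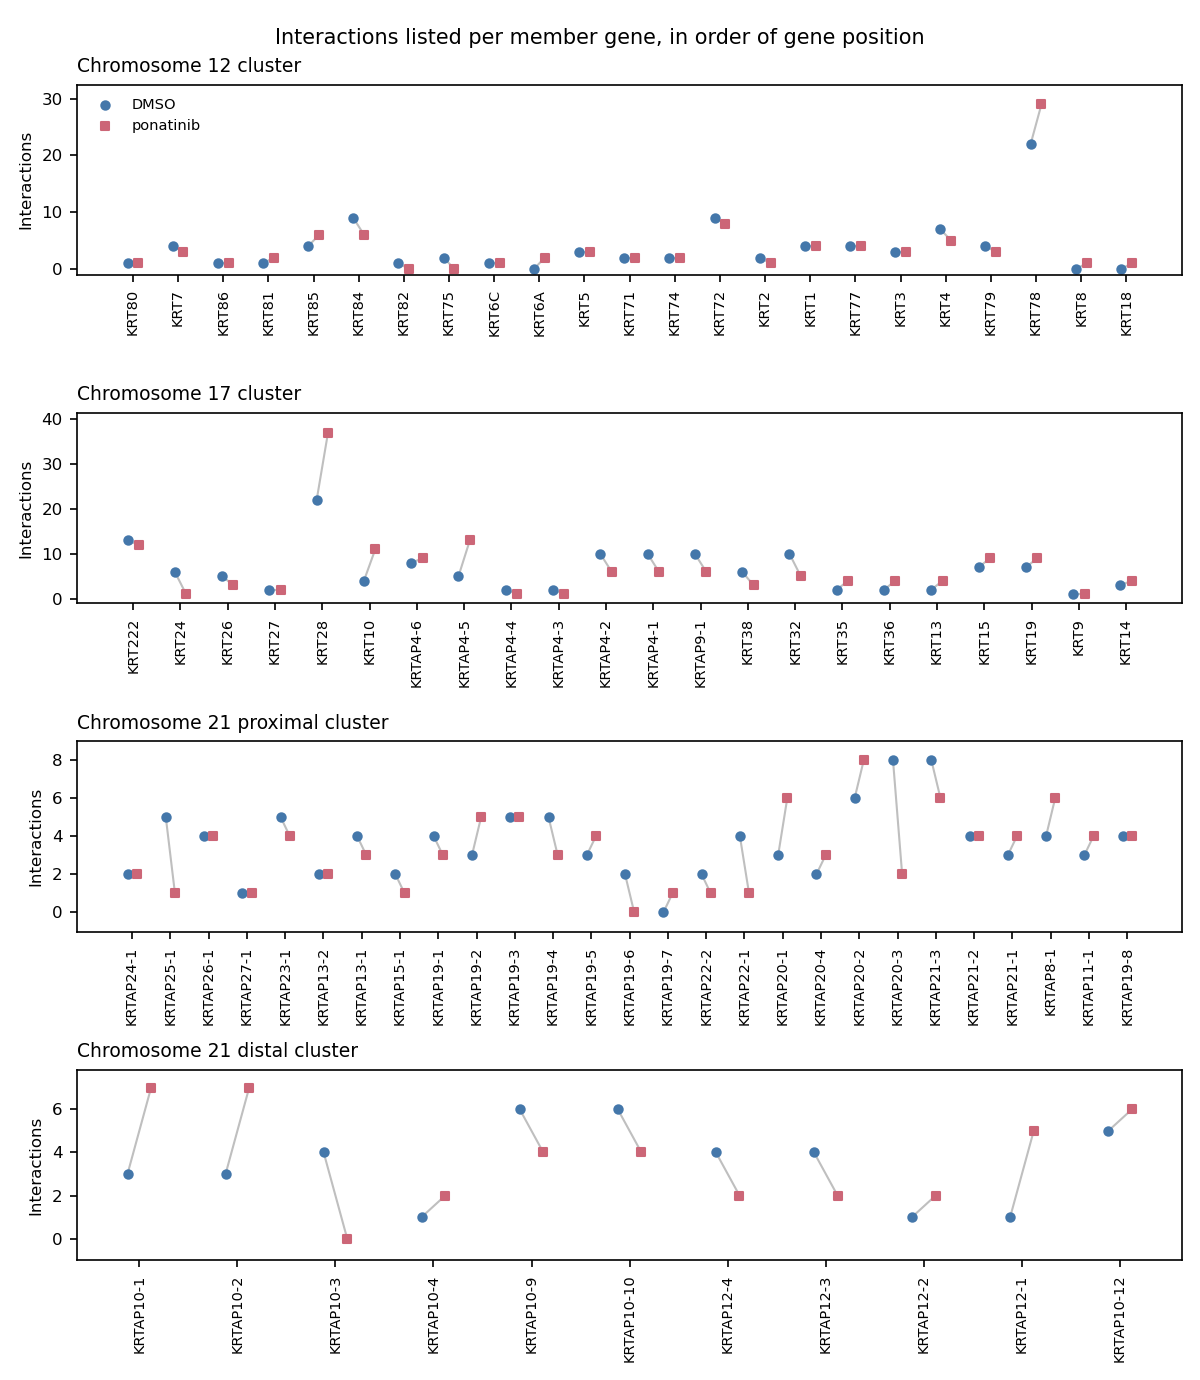
Number of interactions of each member in DMSO and in ponatinib, in order along each cluster. KRT28 (22 and 37) and KRT78 (22 and 29) stand above the other members, whose numbers lie at 13 or below in each list.

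Scores of members were lower than those of the lists in ponatinib, with a median of 6.05 (5.86 to 6.31) against 6.55. In DMSO the median was 6.19 (5.94 to 6.48) against 6.47. Scores below 6 made up 45.7% and 48.3%, against 38.5% and 37.2% of the whole lists. By cluster, medians were 6.42 and 6.19 on chromosome 12, 6.41 and 6.31 on chromosome 17, and 6.19 and 6.68 on distal chromosome 21. Proximal chromosome 21 had the lowest medians of the 4, 5.77 in both. The 35 shared interactions of chromosome 17 had a median score of 6.62 in DMSO and 9.15 in ponatinib, with 19 higher and 16 lower in ponatinib. The KRT28 fragment held 17 of these 35, and most of its 17 were higher in ponatinib. Most shared interactions of the other chromosome 17 fragments were lower in ponatinib, so the excess of higher scores lay at the KRT28 fragment. The medians were not recomputed without that fragment. Of the 18 shared interactions on chromosome 12, 10 were higher and 8 lower. Scores were not normalised between the lists, so these differences describe the lists.

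Contacts with other chromosomes, or with alternate sequences, numbered 22 in DMSO and 17 in ponatinib. They were 9.05% and 6.56% of member interactions, against 7.56% and 7.44% of the whole lists. None was in both lists. For the KRTAP5-9 contact, the sharing of the whole lists at the same score and distance rates gives 0.109%. The lack of overlap is therefore not read as a result about the members. Proximal chromosome 21 had 10 and 9 of them. The highest scores were 14.40, from the KRTAP10-1 and KRTAP10-2 fragment to the X chromosome in DMSO, and 12.65, from KRT81 to a fragment over SYNJ1 on chromosome 21 in ponatinib.

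Set beside other clustered families, keratin members had a within-cluster share of 73.3% in DMSO (67.2 to 78.7%) and 71% in ponatinib (65.1 to 76.5%). Olfactory receptor genes of chromosome 11 had 67.3% and 67.5%, clustered protocadherin genes of chromosome 5 had 71.9% and 63.6%, and zinc finger genes of chromosome 19 had 54.5% and 61.3%. In that order, beginning with keratins, the families form 6, 8, 1 and 16 clusters. Their largest clusters span 970, 3574, 727 and 4462 kb, so these shares are not on a common scale. The identical pair was in both lists for 27.2% and 25.5% of keratin interactions. It was so for 29.9% and 30.4% in olfactory receptors, 50.8% and 47.3% in protocadherins, and 23.0% and 20.4% in zinc fingers. Keratin fragments averaged 3.16 and 3.36 interactions, near the olfactory receptors (3.23 and 3.18), protocadherin fragments 8 and 8.59, and zinc finger fragments 1.88 and 2.12. The differences were not tested.

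A further list of 40 genes held desmosome and other keratin partners, proteins of the cornified envelope, transcription factors of epithelia and hair such as KLF4 and HOXC13, and the intermediate filament genes VIM, DES, LMNA and LMNB1. Of these, 34 had a listed bait fragment, with 197 interactions in DMSO and 207 in ponatinib. Of the 21 with enough interactions, 2 had more in ponatinib by that 2-fold limit and 3 had fewer, where 9.92% and 6.26% of all genes did. The armadillo protein gene PKP4, whose fragments also hold ends of other genes, had 10 and 27, and DSC2, a desmosomal cadherin gene, 2 and 6. DES, which encodes the muscle intermediate filament desmin, had 7 and 2. SPRR1A, of the cornified envelope, had 5 and 2, and AKAP8, which shares a fragment with other genes, 5 and 2. VIM, the intermediate filament gene of mesenchymal and blood cells, had the most, 43 and 39. The median log2 ratio of the list was -0.14.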

How the data were processed

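Promoter-capture Hi-C came from 2 K562 samples, 1 library for each treatment. The authors deposited 1 interaction list per library with a score for each pair of fragments. Positions are on hg38, as the submitters' processing notes name. Not given in the sources used here are the read aligner, the caller, what the score means and its threshold. No score is under 5, and no read counts are in the lists.

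The members and lists were chosen with earlier results of these data known. Genes came from a RefSeq table (GRCh38.p14) and were assigned to each bait fragment that holds either end, so a fragment at the 3' end can be counted. An interaction was an unordered fragment pair, and distance was taken between midpoints. Log2 ratios used a pseudocount of 1. Any member could be named. Those described in full were 7 well known keratins, the 5 members with most interactions per cluster and up to 3 per direction with the largest ratio. Exact binomial intervals used SciPy 1.17.1, with pandas 2.3.3 and NumPy 2.4.6. The counting script was tested on simulated lists. Scores were not normalised, and the alternatives are given in the closing section.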

Additional observations from a re-analysis of the deposited data

How the results depend on the processing

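No paired analysis was possible because each treatment had 1 library, and for the same reason no library could be left out. Read depth is unknown, so differences in it were not tested. Of the values recomputed for clusters and counts, 240 moved by less than their interval and 76 by more. Lists of equal length, gene ends within 1 kb of a fragment, a pseudocount of 0.5 and, added after seeing the data, fragments with the start site moved none. The cause of the moves below was not tested, apart from scores that rise when low ones are left out and shares that follow the definition used. Pairs below are DMSO then ponatinib. With ends matched within 5 kb, shared interactions were 58.7% and 56.7% on chromosome 12, 55.6% and 56.2% on chromosome 17, 28.6% and 32.3% on proximal chromosome 21, 65.0% in DMSO on distal chromosome 21, and 49.4% and 49.8% over all members. With spans widened by 100 kb, within-cluster shares were 94.0% in ponatinib on chromosome 12, 93.3% and 95.2% on chromosome 17, 75% and 91.7% on distal chromosome 21, and 86.8% and 88.4% in all. Counting only partners that are listed bait fragments with an end of a member, they were 31.7% and 26.9%, 18.9% and 18.1%, and 40% and 41.9% on chromosomes 12, 17 and proximal 21, and 28.8% and 25.9% in all. Pairs on 1 chromosome only gave 81.7% and 81.1% on proximal chromosome 21 and 80.5% in DMSO in all. Fragments with no end of a gene outside the family gave 85.4% in ponatinib on chromosome 17. Without the most connected fragment of each cluster, added after seeing the data, 21.2% of all DMSO interactions of members were shared. At scores of at least 7 the median score was 8.33 and 7.83 on chromosome 12, 9.40 and 9.15 on chromosome 17, 7.79 and 7.77 on proximal chromosome 21, 9 and 8.77 on distal chromosome 21, and 8.34 and 8.46 in all. The median per member was then 1 and 1, ponatinib distances had medians of 695 kb on chromosome 17 and 180 kb on proximal chromosome 21, where ponatinib held 30.8% of the interactions and all of its own (100%) were within the cluster. At scores of at least 10 the medians were 11.46 and 10.64, 11.29 and 11.19, 10.15 and 10.72, 11.93 and 11.89, and 11.41 and 11.61 in the same order, and the median per member was 0 and 0. Within-cluster shares were then 100% in DMSO on chromosome 12, 83.3% in ponatinib on chromosome 17, 100% and 100% on proximal and 0% and 0% on distal chromosome 21. Distances had medians of 736.5 kb in ponatinib on chromosome 17, 17.9 and 208 kb on proximal chromosome 21 and 254 kb in ponatinib in all. Shared interactions were 14.3% in ponatinib on chromosome 12 and 0% and 0% on proximal chromosome 21. KRTAP4-5, KRTAP10-1 and KRTAP10-2 reversed at this score, with 0% of their interactions in ponatinib. Members with at least 2-fold more and fewer numbered 2 and 2 at scores of at least 7, and 0 and 0 at 10. With at least 10 interactions over both lists, 1 member had fewer. With ponatinib numbers scaled to the length of the DMSO list, 3 had more.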
